A study of Mus musculus with 36 samples.

Results

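Nicotinamide riboside kinase 2 (Nmrk2), nicotinamide phosphoribosyltransferase (Nampt), the nicotinamide mononucleotide adenylyl transferases Nmnat1 and Nmnat3, and the uridine-cytidine kinases Uck2 and Uck1 were followed across injury groups, days and cell classes of the mouse heart. These 6 genes were picked by symbol out of the 20720 genes in the deposited tables, after their levels in injured cardiomyocytes were known, so their values in cardiomyocytes are given as a description and were not tested. Single cells from the infarct region of the left ventricle, or the matching region after sham surgery, were profiled with SORT-seq, a method that sorts cells singly into multi-well plates and tags each transcript with a unique molecular identifier (UMI). All mice were male animals of 8 weeks, labelled C57BL/6, without an engineered allele. The study's methods name the substrain C57BL/6 J for MI and sham surgery. Sham surgery gave 4 plates on day 1 and 8 on day 14. Ischemia-reperfusion (IR), a 1-hour ligation of the left anterior descending artery followed by reflow, gave 9 plates on day 1, 7 on day 3 and 3 on day 14. Myocardial infarction (MI), a permanent ligation of the same artery, gave 5 plates on day 3.

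Several properties of the plates limited these groups as models. The study states 3 mice per condition for MI, so some of the 5 MI plates share a mouse, and the mouse of each plate is not stated, so p values measure the spread between plates and may be too small. The MI plates carry a protocol label of their own, and a library batch and MI cannot be told apart. Injured hearts of day 3 had no sham group of their own among the plates used here and were set against the mean of sham day 1 and sham day 14. Total UMIs per plate ranged from 176614 to 5551870. At least 1000 UMIs of nuclear genes were found in 3146 of 13824 wells, which were taken as cells, and the median depth per cell was 13120 UMIs in MI and 2217 to 3230 UMIs in the other groups. The wells of replicates 2 and 7 of sham day 14 had nearly the same depths (Spearman rho 0.954, against 0.536 for the next pair of plates), so these tables were counted as 1 plate by their mean, and pooled values leave replicate 2 out. Cells were clustered without the 6 genes, and clusters were called cardiomyocyte-like, endothelial-like, macrophage-like, fibroblast-like or neutrophil-like by marker genes. All 8 cardiomyocyte markers, among them Myh6, Tnnt2 and Ryr2, were detected with at least 1 UMI in the cardiomyocyte-like cells of every group. Such detection does not by itself name the cells, since all 7 fibroblast markers were also detected in those of sham day 1. The cluster with all 17 MI cells and 22 of the 31 cells of IR day 1 had only 3 of the 8 markers raised, the fewest that give a name.

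NAD is the coenzyme that carries electrons between fuel oxidation and the respiratory chain, and it is also consumed by sirtuins and poly(ADP-ribose) polymerases. Cells rebuild it by salvage: Nampt turns nicotinamide into nicotinamide mononucleotide, and the nicotinamide riboside kinases Nmrk1 and Nmrk2, the latter best known from striated muscle, make the same mononucleotide from nicotinamide riboside. Nmnat enzymes, nuclear for Nmnat1 and mitochondrial for Nmnat3, then join the mononucleotide to an adenylyl group. Uridine-cytidine kinases perform the analogous step for pyrimidines by phosphorylating uridine and cytidine, which feeds RNA and sugar-nucleotide synthesis. Uck1 is the more widely expressed enzyme in adult tissue, and Uck2 is known from growing and tumour cells.

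The genes lie on separate chromosomes (GRCm38, GENCODE M21, all protein coding). Nmrk2 occupies chr10:81198170-81202051 on the minus strand, Nampt chr12:32819545-32853349 on the plus strand, Nmnat1 chr4:149467572-149485202 on the minus strand and Nmnat3 chr9:98287435-98420438 on the plus strand. Uck2 occupies chr1:167222883-167285320 and Uck1 chr2:32255002-32260159, both on the minus strand. The 236 bases upstream of the annotated start of Nmrk2 are shown because this gene carried the widest range of pooled levels between groups in cardiomyocyte-like cells. The sequence is that of RefSeq for GRCm38.p6, chr10:81202052-81202287, minus strand, and the capitals mark matches of 3 searched motifs.
Nmrk2: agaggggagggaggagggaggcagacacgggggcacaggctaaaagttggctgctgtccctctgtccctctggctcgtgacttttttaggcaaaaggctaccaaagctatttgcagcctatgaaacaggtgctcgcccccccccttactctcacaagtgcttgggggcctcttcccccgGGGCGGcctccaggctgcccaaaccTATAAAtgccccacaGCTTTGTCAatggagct
A TATA box (TATAAA) began 32 bases upstream of the start, in a window where 12.5% of 27025 gene promoters hold these letters on either strand. A GC box (GGGCGG), present in 30.9% of promoters, began 57 bases upstream. An antioxidant-response motif (TGACNNNGC) matched on the reverse strand 17 bases upstream and is present in 9.49% of promoters. The other 8 motifs searched on both strands had no match in this window. They were AP-1 (TGANTCA, in 6.60% of promoters), M-CAT (CATTCC, 12.1%), the CACGTG form of the E-box (5.56%), the cyclic AMP element (TGACGTCA, 1.44%), the CAAT box (CCAAT, 33.3%), the GATA factor motif (AGATAA, 9.94%), the estrogen-related receptor site (TCAAGGTCA, 0.352%) and the hypoxia response motif (GACGTG, 4.87%). Other forms of the E-box (CANNTG) were not searched, and the window holds CAGGTG and CAAGTG. The 3 matches did not overlap each other. GC content was 58.5%, against a median of 51.7% over all windows.

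In cardiomyocyte-like cells the makeup of the NAD salvage transcripts differed between groups. After sham surgery most UMIs of the 4 NAD genes came from Nampt, whereas at day 1 of IR and day 3 of MI most came from Nmrk2. Nmrk2 made up 4.58% of these UMIs in sham day 1 (7 of 153 UMIs, 95% exact binomial interval 1.86% to 9.20%) and 8.65% in sham day 14 (9 of 104, 4.03% to 15.8%). Its share was 72.5% at IR day 1 (50 of 69 UMIs, 60.4% to 82.5%) and 94.0% at MI day 3 (280 of 298 UMIs, 90.6% to 96.4%). IR day 3 lay between these groups with 33.9% (104 of 307 UMIs, 28.6% to 39.5%), and by IR day 14 the share was 11.1% (23 of 207 UMIs, 7.18% to 16.2%), whose interval overlapped that of sham day 14. Such intervals, like all counting intervals given here, cover counting error only. Nampt showed the mirror image, with 86.3% and 78.8% of the NAD gene UMIs in sham day 1 and sham day 14, 17.4% at IR day 1, 60.3% at IR day 3, 73.9% at IR day 14 and 2.35% at MI day 3. Over single plates the Nmrk2 share was 83.7% to 100% in the 5 MI plates and 0% to 18.2% in all sham plates, so MI and sham plates did not overlap. The 8 plates of IR day 1 spanned 0% to 100%, the 5 of IR day 3 spanned 0% to 38.1% and the 3 of IR day 14 spanned 2.56% to 18.6%, and all of these overlapped the sham plates. A share within the 4 genes does not use the library total.

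**Figure D1:**
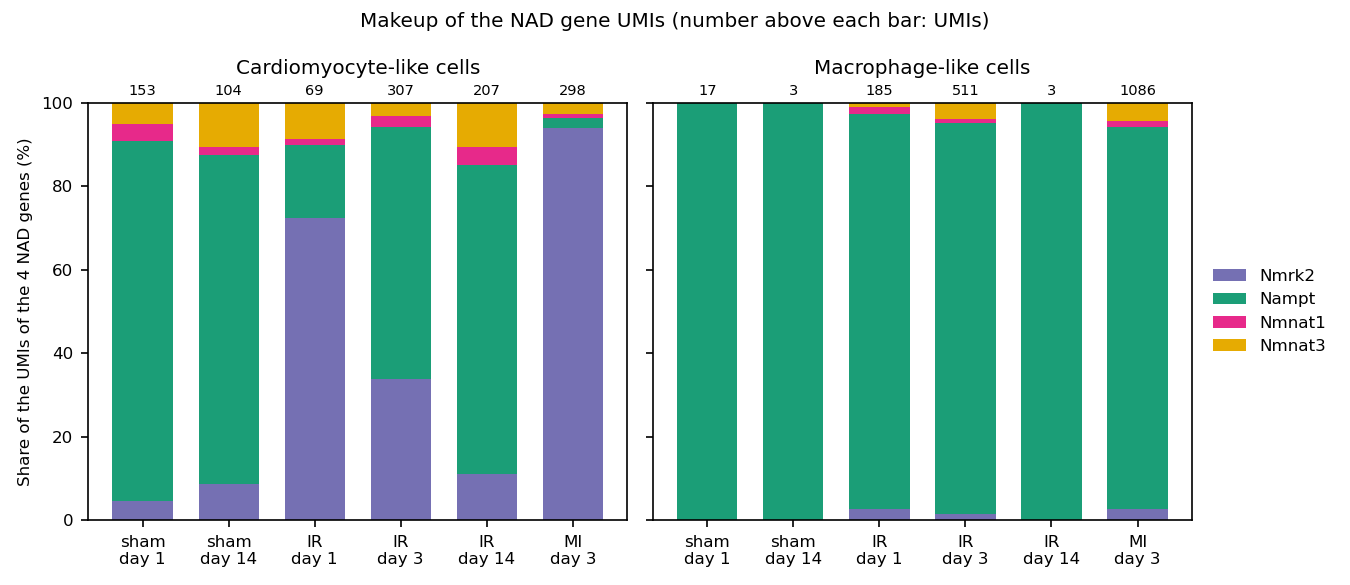
Stacked bars give the share (%) of the summed UMIs of Nmrk2, Nampt, Nmnat1 and Nmnat3 that came from each gene, per group, in cardiomyocyte-like (left) and macrophage-like (right) cells, with the number of UMIs above each bar. Nmrk2 takes 94.0% of the cardiomyocyte bar at MI day 3 and 4.58% in sham day 1, while Nampt takes 91.5% or more of every macrophage bar.

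The share changed mostly through the level of Nmrk2. Levels are UMIs of a gene per 1000000 UMIs (CPM) in the cells of 1 class summed over a plate, and means with their standard deviation (SD) use plates with at least 5 such cells. In sham day 1, the 4 plates had 14.2, 5.51, 7.56 and 0 CPM of Nmrk2 (mean 6.81 ± 5.86). In sham day 14, the 5 plates had 0, 7.98, 50.4, 0 and 6.33 CPM (13.0 ± 21.3), and 6 of the 9 UMIs of this group came from 1 cell. Sham plates were therefore low with a single exception, replicate 5 of sham day 14.

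After 1 day of IR, the 3 plates had 498, 652 and 491 CPM of Nmrk2 (547 ± 91.0, SD, n = 3). At MI day 3, the 2 plates with at least 5 cells had 519 and 1106 CPM (812 ± 415, SD, n = 2), and all 5 MI plates, including those with fewer cells, lay between 519 and 1987 CPM. A further 5 plates of IR day 1 held fewer than 5 such cells each, and over all 8 plates the level ran from 0 to 2475 CPM. Every plate of IR day 1 and MI with at least 5 cells was above every sham plate by far, while IR day 1 and MI day 3 overlapped each other. For scale, 10.8% of all genes tested were called in IR day 1 against sham day 1 and 35.3% of 4258 in MI day 3 against sham (edgeR, adjusted p of 0.05), and the 6 genes were chosen on these contrasts. At IR day 3, the 5 plates had 0, 88.6, 18.5, 132 and 63.0 CPM (60.4 ± 53.2), which overlapped the sham plates at the low end. The 3 plates of IR day 14 had 28.0, 3.68 and 6.43 CPM (12.7 ± 13.3), within the range of sham. In plates with at least 5 cells, the groups thus fell in the order MI day 3, IR day 1, IR day 3, then IR day 14 with both sham groups, and neighbours in that order overlapped except IR day 1 and IR day 3. Over all 8 plates of IR day 1, these 2 groups overlapped as well.

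Pooled over all cardiomyocyte-like cells, Nmrk2 reached 1245 CPM at MI day 3 (95% Poisson interval 1103 to 1399, 280 UMIs), 481 CPM at IR day 1 (357 to 634), 80.8 CPM at IR day 3, 16.2 CPM at IR day 14, and 8.07 and 14.0 CPM in the sham groups of day 1 and day 14. The class held 17 cells at MI day 3 and 31 at IR day 1, against 210 to 342 in the other groups, so the 2 highest levels rest on the fewest cells. Of the MI cells, 1 held 93 of the 280 UMIs (33.2%), and the pooled level without it was 941 CPM. The median MI cell held 8 UMIs of Nmrk2.

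**Figure D2:**
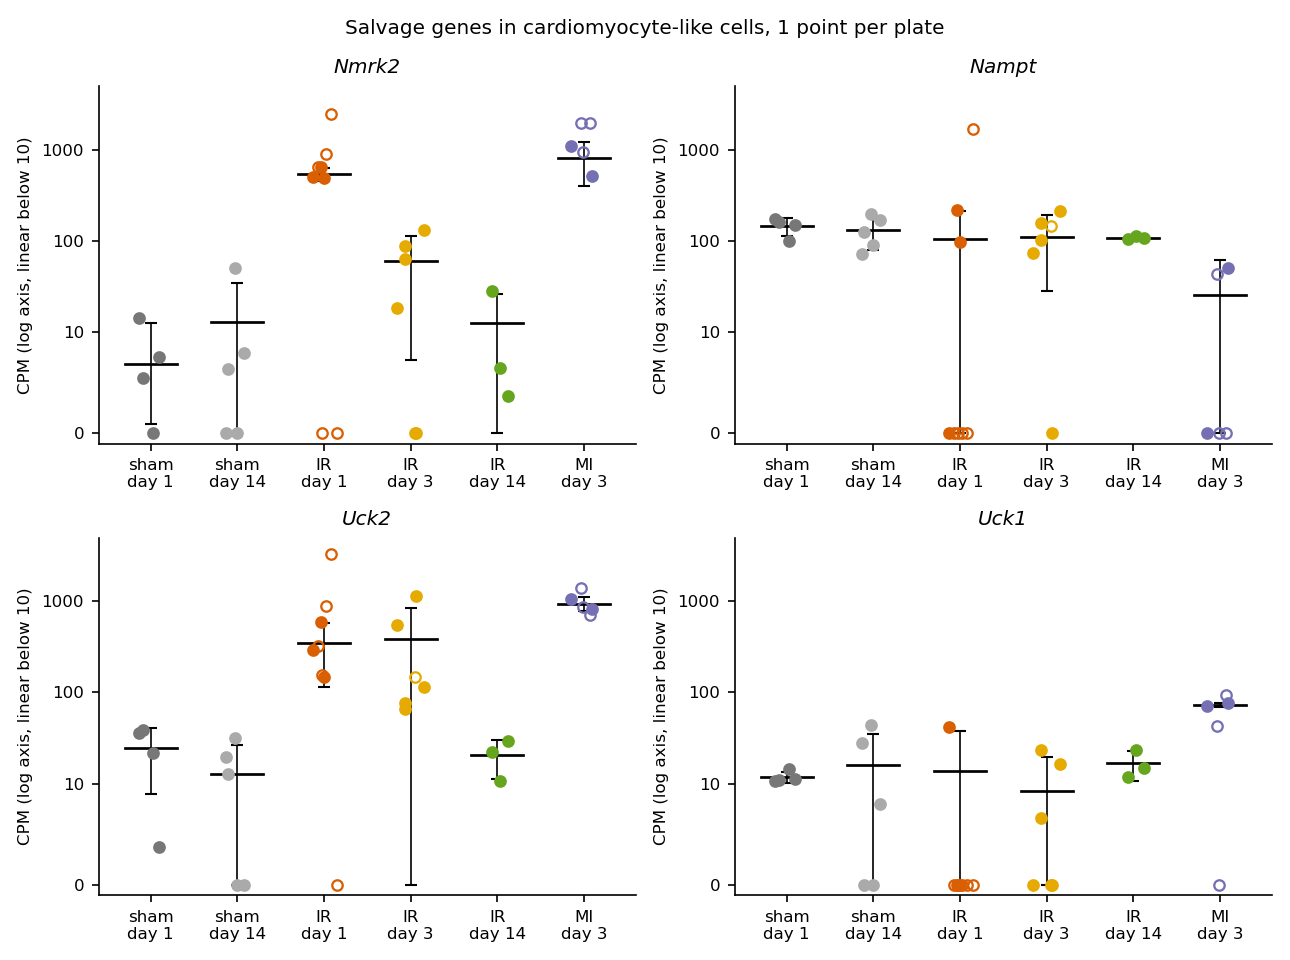
Levels of Nmrk2, Nampt, Uck2 and Uck1 in cardiomyocyte-like cells in CPM (log axis, linear below 10), 1 point per plate and group, with the mean and SD over plates of at least 5 cells as lines and bars (bars cut at 0). Open points are plates with fewer than 5 such cells and stay outside the mean. For Nmrk2, all 5 MI plates lie at or above 519 CPM and all sham plates at or below 50.4 CPM.

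Nampt, the entry enzyme for nicotinamide, had a narrower range of levels and was lowest in MI. Its plates had 174, 160, 151 and 101 CPM in sham day 1 (146 ± 31.8), and 71.3, 168, 195, 91.1 and 127 CPM in sham day 14. At IR day 14 they had 105, 107 and 114 CPM, all within the range of sham. The 5 plates of IR day 3 had 0, 159, 73.9, 214 and 103 CPM and the 3 plates of IR day 1 had 0, 217 and 98.1 CPM, so both groups spanned the sham range. At MI day 3, the 2 plates with at least 5 cells had 50.7 and 0 CPM, below every sham plate. Pooled over the MI cells, Nampt reached 31.1 CPM from only 7 UMIs (95% Poisson interval 12.5 to 64.1), against 152 CPM (127 to 180) and 128 CPM (102 to 159) in the sham groups.

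Nmnat1 and Nmnat3, which finish NAD synthesis in nucleus and mitochondrion, were too sparse to describe further. Over the 3146 cells they had 95 and 211 UMIs, against 597 for Nmrk2 and 3081 for Nampt. Neither passed the filter on low counts in any cell class. In cardiomyocyte-like cells Nmnat1 had 1 to 9 UMIs per group and Nmnat3 had 6 to 22, and the 2 MI plates with at least 5 cells had 0 CPM of Nmnat1 in both and 50.7 and 0 CPM of Nmnat3.

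Among the uridine-cytidine kinases, the levels of Uck2 differed between groups in the same cells. In sham day 1, the 4 plates had 35.4, 38.5, 3.78 and 21.6 CPM of Uck2 (24.8 ± 15.9). In sham day 14, the 5 plates had 19.8, 0, 31.5, 0 and 12.7 CPM (12.8 ± 13.5), and the 3 plates of IR day 14 had 22.1, 29.4 and 10.7 CPM. These 3 groups overlapped and were low.

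At IR day 1, the 3 plates had 290, 597 and 147 CPM of Uck2 (345 ± 230, SD, n = 3), and at MI day 3 the 2 plates had 823 and 1059 CPM (941 ± 166, SD, n = 2), with all 5 MI plates between 699 and 1383 CPM. The 5 plates of IR day 3 had 1127, 65.3, 555, 115 and 76.3 CPM (388 ± 461). Every plate of these 3 injury groups with at least 5 cells was above every sham plate, although IR day 1, IR day 3 and MI overlapped each other. The 2 highest plates of IR day 3 rest on little material: 5 cells in replicate 3, and in replicate 5 a cell with 29 UMIs, 23.4% of all Uck2 UMIs of the group. Pooled, IR day 3 had 96.4 CPM, and 74.8 CPM without that cell, against 308 CPM at IR day 1 and 1031 CPM at MI day 3 (95% Poisson interval 903 to 1173).

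Uck1, the paralog with the same reaction, was low throughout. Its plates lay between 10.6 and 14.4 CPM in sham day 1, between 0 and 44.1 CPM in sham day 14, between 0 and 41.5 CPM at IR day 1, between 0 and 23.3 CPM at IR day 3 and between 11.8 and 23.6 CPM at IR day 14. The 2 MI plates with at least 5 cells had 76.0 and 70.6 CPM, above all of these, although only 14 UMIs were counted in the MI cells. As a share of both kinases, Uck2 made up 67.7% of UMIs in sham day 1 (21 of 31) and 46.2% in sham day 14 (12 of 26), against 97.0% at IR day 1 (32 of 33), 84.4% at IR day 3 (124 of 147), 54.9% at IR day 14 (28 of 51) and 94.3% at MI day 3 (232 of 246). The day 14 value of IR lay within the binomial interval of sham day 14 (26.6% to 66.6%), and the shares of IR day 3 and MI lay above the interval of sham day 1 (48.6% to 83.3%). The interval of IR day 3 (77.5% to 89.8%) overlapped that of sham day 1, however. Plate shares ran from 25.0% to 77.8% in sham day 1 and from 41.7% to 100% in sham day 14. They ran from 87.5% to 100% at IR day 1, 73.7% to 100% at IR day 3 and 88.2% to 100% in MI, so sham and injured plates overlapped.

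Fitted over plates with edgeR after scaling by the trimmed mean of M values (TMM), the log2 fold change of Nmrk2 against sham was 5.38 ± 0.47 (SE) at MI day 3, a 41.7-fold difference, and 2.58 ± 0.48 at IR day 3, a 5.97-fold difference. At IR day 1 it was 5.47 ± 0.62 against sham day 1, a 44.5-fold difference, and at IR day 14 it was 0.13 ± 0.69 against sham day 14. Without replicate 5 of sham day 14, the sham plate with the high value, the Nmrk2 values became 6.58 at MI day 3, 3.75 at IR day 3 and 2.47 at IR day 14, and without replicate 1 of IR day 14 the last was -1.23, so the size and sign of the day 14 value rest on single plates. Uck2 differed by 4.69 ± 0.44 at MI day 3 (25.7-fold), 2.69 ± 0.43 at IR day 3 (6.45-fold) and 3.09 ± 0.62 at IR day 1 (8.54-fold), but by 0.15 ± 0.67 at IR day 14. Without replicate 5 of IR day 3, its IR day 3 value was 1.96. Nampt had a log2 value of -2.75 ± 0.72 at MI day 3, between -7.86 and -1.59 when either MI plate was left out, and values of -0.28 ± 0.32 at IR day 3, -1.10 ± 0.63 at IR day 1 and -0.19 ± 0.39 at IR day 14. MI replicate 3 held 0 UMIs of Nampt, so the -7.86 fitted with only that MI plate gives a direction and not a size. The median gene moved by -0.20, -0.01, -0.49 and 0.08 at MI day 3, IR day 3, IR day 1 and IR day 14, and by 0.03, 0.10, 0.08 and 0.06 with the size factors of DESeq2, so scaling shifted the Nmrk2 and Uck2 values by far less than their size.

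**Figure D3:**
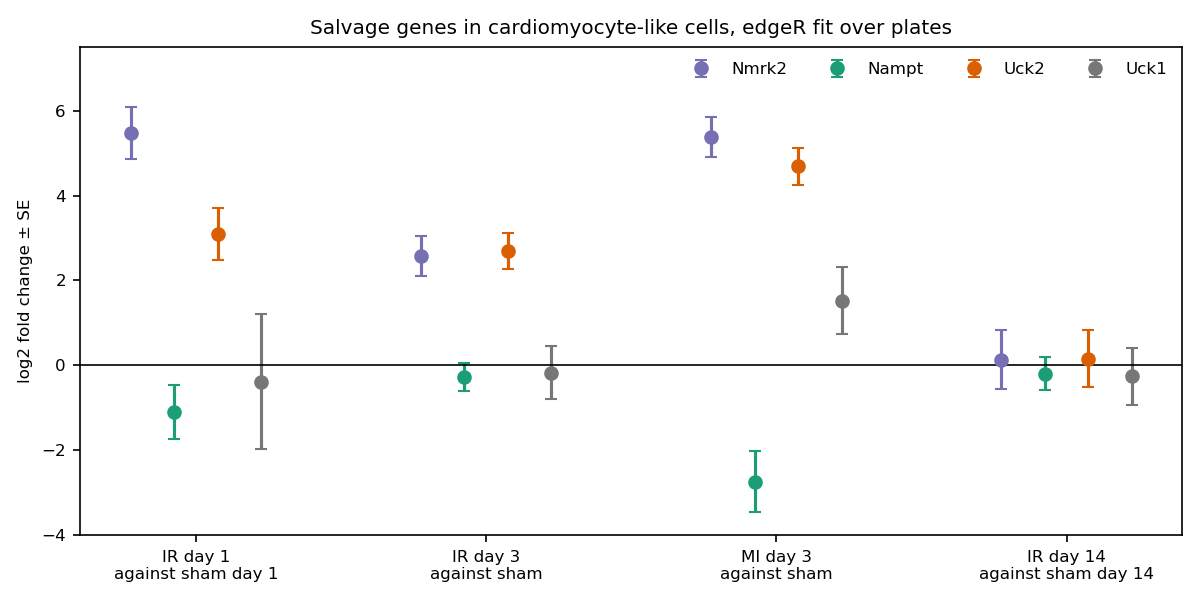
Log2 fold change with its SE (bars) from the edgeR fit over plates for Nmrk2, Nampt, Uck2 and Uck1 in cardiomyocyte-like cells, for 4 comparisons with sham. Nmrk2 and Uck2 lie above 2 in the first 3 comparisons and near 0 at IR day 14, and Nampt is lowest at MI day 3 with -2.75.

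Permanent and temporary ligation were compared at the same day. Between MI day 3 and IR day 3 the log2 fold change was 2.81 ± 0.45 for Nmrk2 (6.99-fold higher in MI), 2.00 ± 0.45 for Uck2 (3.99-fold), 1.70 ± 0.84 for Uck1 and -2.47 ± 0.75 for Nampt. RNA quality differed with it. Mitochondrial transcripts took a median of 5.08% of the UMIs of an MI cardiomyocyte-like cell against 75.6% to 83.6% in the other groups, and the medians of single plates ran from 2.38% to 13.9% in MI and from 28.4% to 85.3% in all other groups. The ribosomal precursor Rn45s took 3.51% of the remaining UMIs in MI against 18.4% to 25.3% elsewhere, but its plates overlapped, with 0.736% to 8.11% in MI, 3.27% to 36.7% in sham day 14 and 2.15% to 30.6% at IR day 1. IR day 1, where Nmrk2 was also high, had 77.3% mitochondrial UMIs and 23.1% Rn45s. The part of these differences in the levels was not tested.

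Markers of other cell types were present in the same cells. The 7 macrophage markers summed to 169 CPM in MI cardiomyocyte-like cells, with all 7 detected and plates from 101 to 282 CPM, to 308 and 629 CPM at IR day 1 and day 3, and to 35.9 to 87.6 CPM in sham and IR day 14. The 7 fibroblast markers summed to 885 CPM in MI, with 6 detected and Lum at 0, to 961 and 2517 CPM at IR day 1 and day 3, and to 159 to 761 CPM in sham and IR day 14. The 6 neutrophil markers summed to 654 CPM at IR day 1 with all 6 detected, to 201 and 79.6 CPM in sham day 1 and day 14, to 31.1 and 79.1 CPM at IR day 3 and day 14, and to 26.7 CPM in MI, where Csf3r, Retnlg and Il1r2 were at 0. The 7 endothelial markers summed to 71.1 CPM in MI, with Ly6c1 and Emcn at 0, and to 126 to 413 CPM in the other groups, although a single plate of IR day 1 reached 11597 CPM. The 8 mural markers summed to 431 CPM in MI, with Rgs5, Kcnj8, Notch3 and Myh11 at 0, and to 166 to 290 CPM in the other groups. Markers of B cells, erythrocytes and T or NK cells were at 0 in MI and at most 38.4 CPM in the other groups. The 8 cardiomyocyte markers summed to 42382 CPM at IR day 1, 54880 CPM in MI and 75992 to 100118 CPM in the other groups. Nmrk2 stood at 3.72 CPM in the MI macrophage-like cells themselves, far below its level in cardiomyocyte-like cells. The part of other cell types in the levels was not tested.

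Cell by cell, more cardiomyocyte-like cells held a UMI of Nmrk2 after injury. A UMI was found in 5 of 236 cells of sham day 1 (2.12%) and 3 of 210 cells of sham day 14 (1.43%), against 16 of 31 cells at IR day 1 (51.6%), 47 of 282 at IR day 3 (16.7%), 13 of 342 at IR day 14 (3.80%) and 15 of 17 at MI day 3 (88.2%). MI cells are deeper, so each cell was also thinned to 1000 UMIs, which left no cell out. The shares were then 1.27% and 0.476% in sham day 1 and day 14, 35.5% at IR day 1, 5.32% at IR day 3, 1.17% at IR day 14 and 58.8% at MI day 3. In macrophage-like cells, which should lack this muscle gene, the thinned share was 0.356% in MI (8.19% unthinned, at a median depth of 22838 UMIs), 0.513% at IR day 3 and 1.72% at IR day 1. The sham and IR day 14 shares were at the level of that background, and those of IR day 1, IR day 3 and MI were above it. That background comes from MI, IR day 3 and IR day 1 only. Macrophage-like cells of sham day 1, sham day 14 and IR day 14 (21, 7 and 6 cells) held 0 UMIs of Nmrk2, too few cells for a background of their own.

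Uck2 was likewise found after thinning in more cells of IR day 1, IR day 3 and MI, with 2.12% and 1.90% of cells in sham day 1 and day 14, 19.4% at IR day 1, 6.74% at IR day 3, 1.75% at IR day 14 and 58.8% at MI day 3. Nampt was found after thinning in 11.0% of the cells of both sham groups, 9.68% at IR day 1, 9.93% at IR day 3, 12.0% at IR day 14 and 0% at MI day 3 (0 of 17 cells). A count of 0 was taken to allow up to 3 cells, here 17.6% at this thinned depth, which is not an exact binomial limit. Unthinned, 4 of these 17 cells (23.5%) held Nampt. Also unthinned, 14 of the 17 MI cells held both Nmrk2 and Uck2, 11 held Nmrk2 without Nampt and 0 held Nampt without Nmrk2. Both kinases were held by 9 of 31 cells at IR day 1. At IR day 3, by contrast, only 10 of 282 cells held both, 37 held Nmrk2 without Uck2 and 40 held Uck2 without Nmrk2, at the lower depth of these cells. After thinning, both kinases were found in 5 of 17 cells of MI, 5 of 31 at IR day 1 and 0 of 282 at IR day 3, so the MI counts above depend on depth.

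The cardiomyocyte-like cells comprised several clusters, and the kinases were concentrated in 1 of them. This cluster of 233 cells was led by Sprr1a, Nppa, Clu, Nppb, Acta1, Myh7 and Ankrd1, genes of the fetal and stress program of heart muscle. It held all 17 MI cells, 22 of the 31 cells of IR day 1 and 161 of the 282 cells of IR day 3, but only 24 of 342 at IR day 14, 6 of 236 in sham day 1 and 3 of 210 in sham day 14. Nmrk2 ranked among its leading genes although it had been kept out of the clustering, and since the cells were grouped on genes measured in the same cells, the values within it are a description. At IR day 3, Nmrk2 had 136 CPM in this cluster (95% Poisson interval 107 to 171) and 41.3 CPM in the other clusters (28.1 to 58.7). It was higher inside the cluster in replicates 4, 6 and 7 but at 0 CPM there in replicates 3 and 5. Pooled over IR day 14 it had 90.9 CPM in the 24 cells of the cluster (47.0 to 159) and 8.56 CPM in the other 318 cells (4.28 to 15.3). That value rests on 1 plate: all 12 UMIs inside the cluster came from replicate 1, 7 of them from 1 cell. Without that plate the level was 0 CPM in 12 cells. At IR day 1 it had 563 CPM in this cluster and 146 CPM, from 3 UMIs, in the 9 other cells. The few sham cells of the cluster held 0 UMIs of Nmrk2, and their intervals reached 164 and 202 CPM.

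Pooled over plates, Uck2 was split in the same way, with 173 against 41.3 CPM at IR day 3 and 90.9 against 12.5 CPM at IR day 14 in the stress cluster and the other clusters, respectively. Single plates of IR day 3 differed. Uck2 was higher inside the cluster in replicates 4, 5 and 7, but lower in replicate 3 (771 against 1383 CPM) and replicate 6 (0 against 142 CPM). At IR day 14, however, 1 cell of replicate 1 held 8 of the 12 UMIs of the cluster, whose level was 34.2 CPM without it. The IR day 3 level was 123 CPM without the cell of 29 UMIs. All 32 UMIs of IR day 1 fell in the stress cluster. Nampt had 129 CPM in that cluster and 155 CPM in the others at IR day 3, and 121 against 107 CPM at IR day 14, with overlapping intervals. Within the stress cluster the groups still differed: Nmrk2 ranged from 90.9 CPM at IR day 14 through 136 CPM at IR day 3 and 563 CPM at IR day 1 to 1245 CPM in MI, whereas Nampt was 31.1 CPM in MI and 83.9 to 129 CPM in the 3 IR groups. Between day 3 and day 14 of IR, the intervals of Nmrk2 overlapped inside this cluster, whereas in the other clusters they did not (41.3 against 8.56 CPM). The overlap inside the cluster rests on replicate 1 of IR day 14. Without that plate the day 14 level was 0 CPM in 12 cells, and without its top cell 42.9 CPM, so this contrast is not firm. Fewer cells were in the cluster at day 14.

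**Figure D4:**
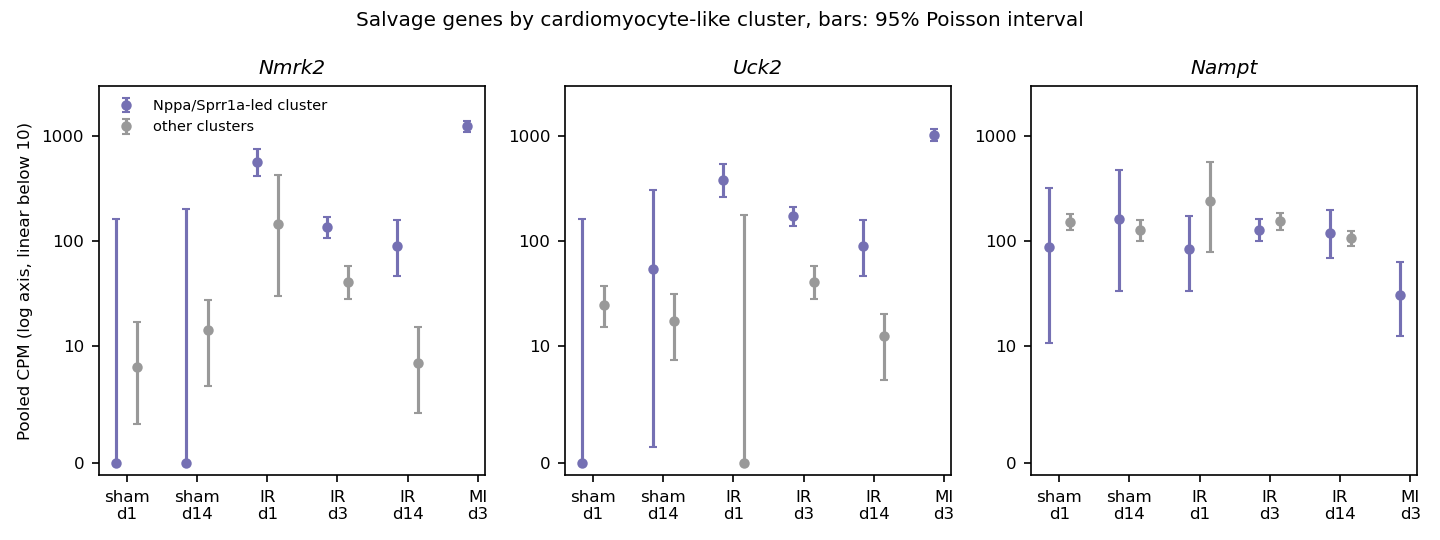
Pooled levels (CPM, log axis, linear below 10) of Nmrk2, Uck2 and Nampt in the cluster led by Sprr1a and Nppa (purple) and in the other cardiomyocyte-like clusters (grey), per group, with 95% Poisson intervals as bars. At IR day 3 and IR day 14 the intervals of the 2 cell sets do not overlap for Nmrk2 and Uck2 but overlap for Nampt, although all 12 Nmrk2 UMIs of the cluster at IR day 14 came from 1 plate, and MI has cells in the stress cluster only.

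Genes whose plate levels ran most closely with these kinases were sought among 2408 genes with a mean of at least 50 CPM over the 22 plates with at least 5 cardiomyocyte-like cells, as Pearson's r of log2(CPM + 10). Nmrk2 was followed by Tmsb10 (r = 0.904), Timp1 (0.877), Arpc5 (0.873), Tuba1c (0.873) and Sh3bgrl3 (0.871), of which Tmsb10 and Arpc5 act on actin, Tuba1c is a tubulin and Timp1 inhibits matrix metalloproteinases. Uck2 was followed by Synpo2l (0.922), Rpl10a (0.905), Arhgdia (0.901), Csrp3 (0.901) and Rpl32 (0.899), of which Synpo2l and Csrp3 belong to the sarcomere's Z-disc and Rpl10a and Rpl32 to the ribosome. Without the plates of MI and IR day 1, r over the other 17 plates was 0.548 to 0.883 for the first 5 genes and 0.814 to 0.895 for the second 5. Nmrk2 and Uck2 themselves had r = 0.678. The plates share library depth and group, so these values describe likeness and carry no test.

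Few other genes of the NAD pathway passed the test. Of 38 further genes of NAD synthesis, transport and use, 37 were in the tables and 11 passed the filter in cardiomyocyte-like cells. At MI day 3 against sham, 1 of the 11 was higher and 1 was lower, in a comparison in which 14.3% of all genes tested were called higher and 21% lower. The list's median log2 fold change was -0.42, against -0.20 over all genes. Nnt, the mitochondrial transhydrogenase that transfers hydride between NADH and NADP and of which C57BL/6 J mice are known to carry a deletion allele, was lower by -2.44 ± 0.61 (edgeR adjusted p = 0.000881), with 78.7 ± 21.8 CPM in MI against 199 ± 67.2 CPM in sham day 1 and 273 ± 190.2 CPM in sham day 14. Sirt2, an NAD-dependent deacetylase, was higher by 1.39 ± 0.49 (edgeR adjusted p = 0.0205), with plates at 188 and 203 CPM in MI against 0 to 75.7 CPM in sham, while all 3 plates of IR day 1 were at 0 CPM. The call of Sirt2 was lost under 4 settings, among them the replicate block (0.92, edgeR adjusted p = 0.304). The calls of Sirt2 and Nnt were lost without MI replicate 2 (edgeR adjusted p = 0.337 and 0.112). In IR day 1 against sham day 1, 3.8% of all genes were called higher and 7% lower, and 10.3% of the calls in simulated counts of this comparison were false. Here 1 of the 11 was called, again Nnt, lower by -2.94 ± 0.80 (edgeR adjusted p = 0.00879, but 0.0586 without IR day 1 replicate 3 and also above 0.05 under 2 settings), and the list's median was -0.38 against -0.49. At IR day 3, with 6.11% of genes called, 0 of 11 NAD genes were called (1 at an unadjusted p under 0.05, and a median of 0.25 against -0.01).

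Of 33 further pyrimidine genes, 32 were in the tables and 7 passed the filter. At MI day 3, 2 were higher and 1 was lower, against 14.3% and 21% of all genes, and the median was 0.12 against -0.20 over all genes. Nme1, a nucleoside diphosphate kinase that acts downstream of Uck2 and on purines alike, was higher by 2.99 ± 0.54 (edgeR adjusted p = 4.9e-06), with plates at 212 and 266 CPM in MI against at most 39.6 CPM in sham. Ctps, which makes CTP from UTP, was higher by 1.46 ± 0.60 (edgeR adjusted p = 0.0482), and Slc29a1, an equilibrative nucleoside transporter, was lower by -2.40 ± 0.78 (edgeR adjusted p = 0.0111). Neither call was firm: that of Ctps was lost under 4 settings, with 6 of the sham plates left out in turn and without MI replicate 2 (edgeR adjusted p from 0.0505 to 0.399), and that of Slc29a1 under 2 settings and without either MI plate (edgeR adjusted p = 0.338 and 0.0916). Nme1 was also the single gene called of 7 at IR day 3, where 4.25% of all genes were called higher (1.78 ± 0.45, edgeR adjusted p = 0.00381) and at IR day 1 (2.31 ± 0.81, edgeR adjusted p = 0.0490). The IR day 3 call was lost with cells of at least 2000 UMIs and with sham day 14 alone as control (edgeR adjusted p = 0.0882 and 0.0929). The IR day 1 call was lost under 5 settings, without any 1 of the 4 sham plates and without IR day 1 replicate 2 or 3 (edgeR adjusted p = 0.687 without replicate 3). The comparisons of MI and IR day 3 share their sham plates.

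Of 31 purine genes, all were in the tables and 15 passed the filter. At MI day 3, where 35.3% of all genes were called, the list's median was 0.51 against -0.20 over all genes, and 1 of the 15 was called: Hprt, which salvages hypoxanthine and guanine, was higher by 2.18 ± 0.48 (edgeR adjusted p = 0.000151), with plates at 203 and 376 CPM against at most 71.9 CPM in sham. At IR day 1, Aprt, which salvages adenine, was higher by 2.45 ± 0.85 (edgeR adjusted p = 0.0461, and above 0.05 under 4 settings and without 6 of the 7 plates) and the median equalled that of all genes at -0.49. The purine list at IR day 3, with 6.11% of all genes called, had 0 of 15 genes called (2 at an unadjusted p under 0.05) and a median of 0.17 against -0.01. At IR day 14, where 0.211% of genes were called, 0 of the 33 genes of the 3 lists were called by edgeR, with 1 at an unadjusted p under 0.05, and in MI against IR day 3, where 22.4% of genes were called, the count was again 0 of 33, with 5 at an unadjusted p under 0.05. In simulated counts of the MI comparison with sham, 38% of genes changed 4-fold were recovered, so a gene without a call may still have differed by such an amount.

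In the other named classes most NAD gene UMIs came from Nampt, in injured hearts too. Nampt made up 91.5% to 94.6% of the NAD gene UMIs in macrophage-like cells at IR day 1, IR day 3 and MI day 3, with Nmrk2 at 1.37% to 2.70%. It made up 73.0% to 92.3% in endothelial-like cells over all 6 groups and 80.4% in fibroblast-like cells of MI (312 of 388 UMIs). In MI, the Nmrk2 share in these classes was 1.03% in endothelial-like cells (1 of 97 UMIs), 2.32% in fibroblast-like cells (9 of 388) and 2.67% in macrophage-like cells (29 of 1086). At IR day 1 it was 17.5% in endothelial-like cells (11 of 63 UMIs, plates from 0% to 38.5%), against 5.13% and 0% in sham day 1 and day 14, and 7.41% in fibroblast-like cells (4 of 54), against 0% in both sham groups. A further 553 cells were in clusters left without a name, and there Nmrk2 made up 55.3% at IR day 1 (26 of 47 UMIs, 95% exact binomial interval 40.1% to 69.8%) and 34.1% in MI (15 of 44, 20.5% to 49.9%), against 0% and 7.69% in sham day 1 and day 14. Of the 182 unnamed MI cells, 174 were in a cluster with 4 raised fibroblast markers.

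Uck2 varied in other classes too. Tests are given there because the genes were picked for cardiomyocytes. Results in all classes were known at that time, however, so these p values are no independent support. In macrophage-like cells, the 9 plates of IR day 1 ranged from 18.7 to 184 CPM (median 56.6), the 6 plates of IR day 3 from 0 to 67.9 CPM (median 11.8) and the 5 MI plates from 24.2 to 50.3 CPM (33.6, 24.2, 34.6, 29.0 and 50.3). The ranges of IR day 1 and IR day 3 overlapped, but 4 of the 6 plates of IR day 3 lay below every plate of IR day 1. Uck2 was 5.74-fold lower at IR day 3 than at IR day 1 (log2 fold change -2.52 ± 0.53, edgeR adjusted p = 0.00065, and -2.76 to -2.10 with any 1 plate left out), in a comparison in which 26.3% of 5116 genes were called and 12.4% were called lower. As a share of both kinases it was 66.9% at IR day 1 (79 of 118 UMIs, plates 55.6% to 83.3%) and 30.8% at IR day 3 (24 of 78 UMIs, plates 0% to 50%), so the plates did not overlap in share. In replicates 1, 3, 5 and 6 of IR day 3, however, each kinase had at most 2 UMIs, so a single UMI could make the plates overlap. Different clusters held most macrophage-like cells in these groups: 141 of 195 cells of IR day 3 were in a cluster led by Gpnmb and Cd68, where Uck2 had 8.21 CPM, and 73 of 116 cells of IR day 1 were in a cluster led by Cd74 and H2-Ab1, where it had 63.8 CPM.

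Nampt did not pass the test in macrophage-like cells between IR day 3 and IR day 1 (0.51 ± 0.26, edgeR adjusted p = 0.153), with plates from 136 to 241 CPM at IR day 3 and from 65.5 to 206 CPM at IR day 1. Between MI day 3 and IR day 3, with 8.42% of genes called, neither Uck2 (1.49 ± 0.51, edgeR adjusted p = 0.0642) nor Nampt (-0.71 ± 0.26, edgeR adjusted p = 0.0781) passed the threshold in this class. Both lay close to it, and either was called under some alternative settings.

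In fibroblast-like cells, Uck2 had 93.3 ± 53.8 CPM at IR day 1 (SD, 5 plates from 43.9 to 172), 28.6 ± 23.8 CPM at IR day 3 (4 plates from 0 to 49.7) and 70.3 ± 13.0 CPM in MI (5 plates from 57.4 to 91.1), against 4.96 ± 8.59 CPM in the 3 plates of sham day 1. All MI plates were above all IR day 3 plates, yet the difference did not pass the test (0.94 ± 0.46, edgeR adjusted p = 0.223, with 8.49% of 5934 genes called). Nampt (0.24 ± 0.50, edgeR adjusted p = 0.834) and Uck1 (-0.50 ± 0.47, edgeR adjusted p = 0.580) did not pass it either. Of the MI fibroblast-like cells, 131 of 132 were in a cluster led by Timp1 and Cxcl5, which held 36 of the 56 cells of IR day 3.

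In endothelial-like cells, Uck2 was highest in MI, with 63.9 ± 28.1 CPM (SD, 5 plates from 25.0 to 102) against 12.8 ± 5.76 CPM in the 4 plates of sham day 1 and 11.6 ± 15.6 CPM in the 4 plates of sham day 14. It did not pass the filter on low counts, and in a fit of every gene with at least 1 UMI it was higher in MI than in sham by 2.30 ± 0.59 (edgeR adjusted p = 0.00172), with 11.1% of 16647 genes called. The sham plates held 0 to 3 UMIs of Uck2 each, and most MI plates were deeper. That p value therefore rests on few sham UMIs and does not replace the filtered test. As a share of both kinases it was 75.7% in MI (103 of 136 UMIs, plates from 16.7% to 93.3%) and 25.0% in sham day 1 (6 of 24 UMIs, plates from 16.7% to 40.0%), so the plates overlapped in share. Most MI endothelial-like cells (52 of 58) were in a cluster led by Plvap and Igf2, and most of sham day 1 (80 of 86) in a cluster led by Cd300lg and Ly6c1. Nampt and Uck1 were tested in 3 endothelial comparisons, and 0 of the 6 tests passed at adjusted p values of 0.161 to 1.00 in edgeR, with 0 at an unadjusted p under 0.05 and 0 called by DESeq2. The share of all genes called was 31.2% in MI against sham, 14.1% in IR day 1 against sham day 1 and 0% in IR day 14 against sham day 14.

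**Figure D5:**
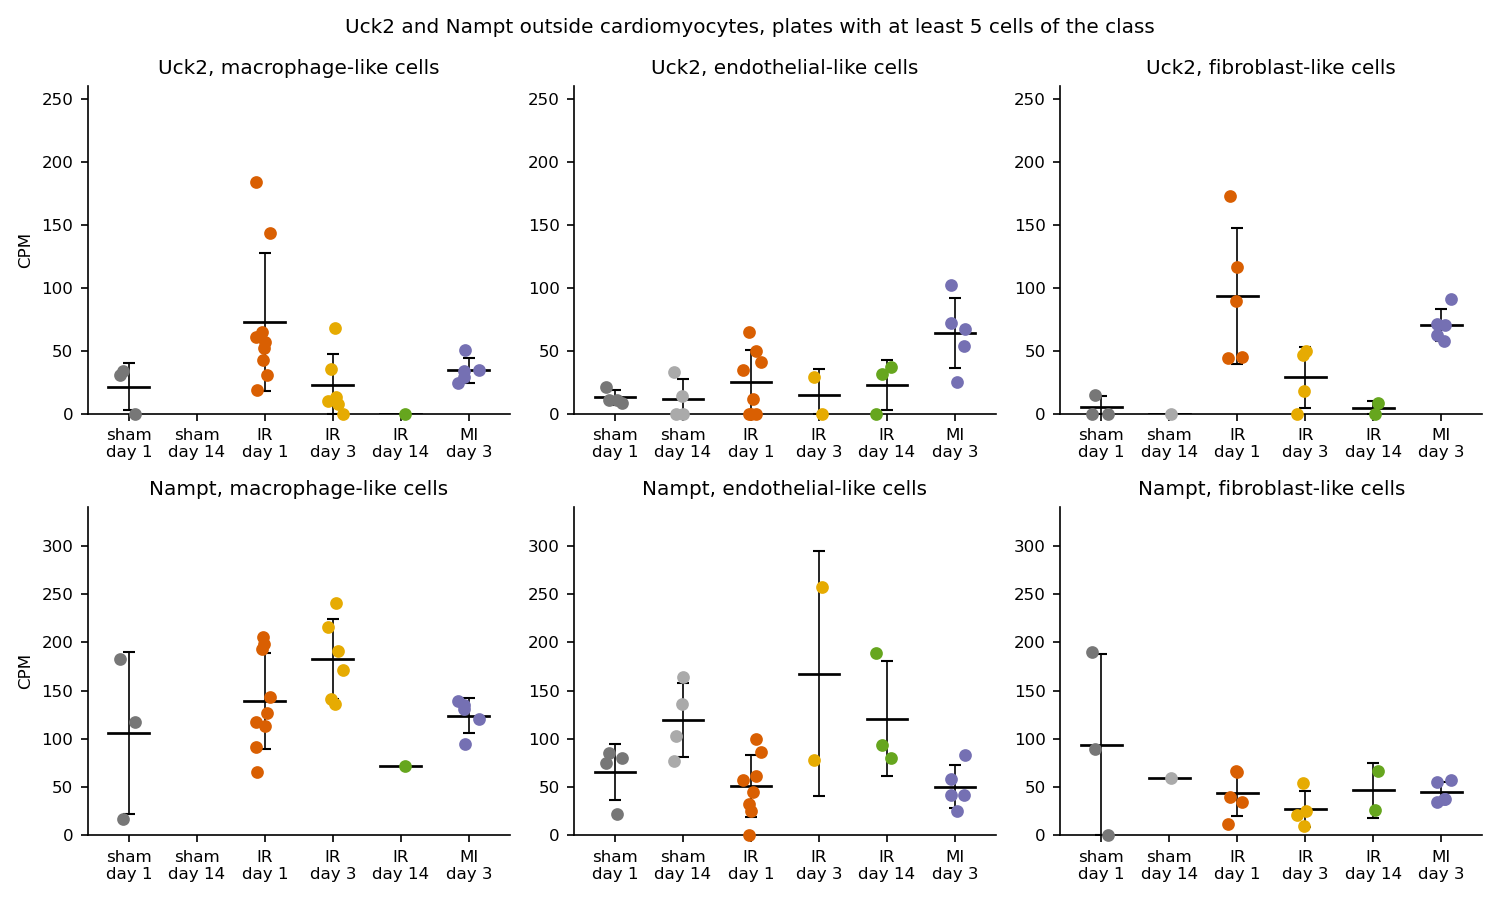
Levels (CPM) of Uck2 (top) and Nampt (bottom) in macrophage-like, endothelial-like and fibroblast-like cells, 1 point per plate with at least 5 cells of the class, with the mean and SD (bars, cut at 0) per group. In macrophage-like cells, 4 of the 6 plates of IR day 3 lie below all 9 plates of IR day 1 for Uck2, and in endothelial-like cells the MI plates reach 102 CPM.

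Compared between classes of the same hearts, the injury-related levels of Uck2 in MI were 1031 CPM in cardiomyocyte-like cells pooled, against plate means of 34.3, 63.9 and 70.3 CPM in macrophage-like, endothelial-like and fibroblast-like cells. Nampt ran the other way in MI, with plate means of 124 CPM in macrophage-like cells, 50.1 CPM in endothelial-like cells and 44.2 CPM in fibroblast-like cells, and 25.3 CPM in cardiomyocyte-like cells. In sham day 1, cardiomyocyte-like cells had 146 CPM of Nampt and endothelial-like cells 65.2 CPM, so the order of the means of these 2 classes was the opposite. The MI mean of cardiomyocyte-like cells comes from 2 plates at 50.7 and 0 CPM, with 4 and 0 UMIs. These plates overlapped the endothelial-like MI plates (25.0 to 83.5 CPM), so the order of the 2 classes in MI is uncertain. These differences between classes were not tested.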

How the data were processed

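The authors deposited 1 table of UMI counts per gene and well for each of 36 plates. Per the labels and methods, paired-end reads were mapped with BWA (version not given in the sources used here) to GRCm38/mm10, and transcripts were counted by UMIs of 6 bases. All 174110208 deposited counts were whole numbers, and the highest was 4096. The study discarded mitochondrial genes. Here mitochondrial and spike-in rows were left out of every total, except where a mitochondrial share is given.

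A well counted as a cell from 1000 UMIs. Cells were scaled to 10000 per cell and clustered without the 6 genes with scanpy 1.11.5 and leidenalg 0.10.2 (2000 variable genes, 30 principal components, 15 neighbours, resolution 1, seed 1). Naming a cluster took 3 or more markers of 1 list with a mean 2 or more times that of all remaining cells, and a lead of 1.5 times over the other lists. A cluster stayed unnamed where another list had more markers among its top 10 genes, or where it was over 3 times shallower than its plates with none of its own there. The deposited tables hold no cell labels, so the names are rebuilt, and doublets were not called. A search for wells copied between plates found 39 in pairs of plates with at least 4 matches, beside the repeated plate of sham day 14, and these were left out as an alternative.

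Counts were summed per plate and class over plates with at least 5 cells, filtered with filterByExpr and entered 1 edgeR 4.0.16 model of all groups in R 4.3.3 (TMM scaling, quasi-likelihood F test). Adjusted p values follow Benjamini and Hochberg across every gene tested in the comparison, and the threshold was 0.05. Sham replicates 2 and 7 of day 14 entered as their rounded mean. CPM are before TMM scaling. The script recovered 37% to 96% of genes changed 4-fold in simulated counts, with the lowest shares for comparisons of MI and IR day 1 cardiomyocyte-like cells, and 2.88% to 10.3% of its calls were false over all comparisons. Plates of the same replicate number did not deviate together (median r of -0.0069 in cardiomyocyte-like cells), so the numbers only name plates. Alternatives were DESeq2 1.42.0 with its size factors, other filters, cell minimums and controls, and leaving out plates.

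The 6 genes and the lists of NAD, pyrimidine and purine genes were chosen with earlier results of these data known. Named list genes were up to 2 per list and direction with the largest change among those called. For the promoter, a RefSeq table of 300 bases per gene was used, and its bases upstream of the GENCODE start were kept. Protein sequences were not used here.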

Additional observations from a re-analysis of the deposited data

Results flagged for a closer look

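In groups of 4 to 10 plates, 38 sets of values were searched for a plate far from the others, and chance flags about 1 such set in 20. Nmrk2 in cardiomyocyte-like cells of sham day 14 stood at 50.4 CPM in replicate 5 (8 UMIs in 38 cells), where the other plates entered the search at 0 to 6.33 CPM. Nmnat1 stood at 91.1 CPM in replicate 6 of the same group, a value made by 1 UMI in 7 cells, against at most 3.96 CPM in the other plates. Nampt in endothelial-like cells of sham day 1 stood at 21.9 CPM in replicate 4 (2 UMIs in 16 cells), below the other plates at 74.5 to 84.8 CPM.

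Wells with at least 100 and under 1000 UMIs were not used as cells, and their class is unknown. Summed per group, Nmrk2 and Uck2 were higher at IR day 1 and MI day 3 than in either sham group. Nmrk2 had 111 CPM at IR day 1 (53 UMIs, 9 plates from 39.9 to 185 CPM) and 39.4 CPM at MI day 3 (24 UMIs, plates from 0 to 77.2 CPM), while sham plates reached at most 14.2 CPM and sham day 14 had 0 UMIs. Nmrk2 at IR day 3 and day 14 had 17.5 and 9.03 CPM, with plates from 0 CPM in both. Uck2 had 128 CPM at IR day 1 (61 UMIs, plates from 35.3 to 287 CPM) and 85.4 CPM at MI day 3 (52 UMIs, plates from 18.0 to 154 CPM), while sham plates ran from 0 to 45.7 CPM. Uck2 at IR day 3 and day 14 had 59.6 and 4.51 CPM, the latter below both sham groups (27.1 and 18.4 CPM). In the same wells Nampt had 50.2 CPM at IR day 1 and 93.7 CPM at MI day 3, against 126 and 160 CPM in sham day 1 and day 14. These differences were not tested.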

How the results depend on the processing

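The Nmrk2 share of NAD gene UMIs and the Uck2 share of both kinases stayed within their counting intervals in every group with cells of at least 2000 UMIs and with the 6 genes kept for clustering. Leaving out copied wells removed none of the cells behind these shares and so tested nothing. Uck2 stayed lower in macrophage-like cells at IR day 3 than at IR day 1 in 9 alternative fits (log2 fold change from -2.64 to -2.42). With cells of at least 2000 UMIs it was not tested, so 0 of the 6 genes were called. In macrophage-like cells of MI against IR day 3 the count of the 6 genes rose from 0 to 1 with DESeq2, at least 10 cells per plate or at least 2000 UMIs (Nampt), and with every gene of at least 1 UMI or the replicate block (Uck2, 2.13, adjusted p = 0.0494 in edgeR). In endothelial-like cells of MI against sham it rose from 0 to 1 with every gene tested (Uck2) and with the 6 genes kept for clustering (Nampt). Of 33 list genes in cardiomyocyte-like cells, the count at IR day 3 against sham (1) was 2 with the size factors of DESeq2 or every gene tested and 0 with at least 2000 UMIs or sham day 14 alone, and at IR day 1 (3) it was 1 with the replicate block or at least 10 cells. At MI against sham (6) it was 3 with sham day 14 alone, and at MI against IR day 3 (0) it was 2 with at least 1 cell per plate, at least 2000 UMIs or the 6 genes kept for clustering. Leaving out 1 plate at a time gave 2 to 6 of the 33 list genes at MI against sham (2 without MI replicate 2), 0 to 2 at IR day 1 (0 without IR day 1 replicate 3), 1 to 2 at IR day 3 and 0 to 4 at MI against IR day 3 (4 without IR day 3 replicate 5), and 0 at IR day 14. In the other classes the count is of the 6 genes, not of the lists. It was 0 throughout in the endothelial-like and fibroblast-like comparisons. In macrophage-like cells it was 1 throughout at IR day 3 against IR day 1 and 0 to 1 at MI against IR day 3 (1 without IR day 3 replicate 3). Leaving out plates in groups of more than 5 was chosen after seeing the data. The causes were not tested. No MI plate had 10 cardiomyocyte-like cells, so that alternative gave no MI value there. Under the replicate block, all genes called went from 1504 to 953 at MI against sham, 260 to 54 at IR day 3, 460 to 303 at IR day 1 and 955 to 235 at MI against IR day 3. Low counts limit Nmnat1 and Nmnat3 in every class, and the number of cardiomyocyte-like cells limits all 6 genes in MI (17 cells) and at IR day 1 (31 cells).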

Other observations

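Neutrophil-like cells were found almost only at IR day 1 (106 cells) and MI day 3 (49 cells), with 1 cell in sham day 1. Nampt had 50.1 CPM there at IR day 1 (13 UMIs, 95% Poisson interval 26.7 to 85.6) and 90.7 CPM in MI (13 UMIs, 48.3 to 155). Uck2 had 38.5 CPM at IR day 1 (10 UMIs) and 27.9 CPM in MI (4 UMIs), and Nmrk2 had 1 and 3 UMIs. Intervals of the groups overlapped for each of these genes. Among macrophage-like clusters, that led by Gpnmb and Cd68 had the highest Nampt level and the lowest Uck2 level, with 214 CPM and 8.21 CPM, against 112 CPM and 63.8 CPM in the cluster led by Cd74 and 133 CPM and 27.8 CPM in the cluster led by Cd163. The fibroblast-like cluster led by Timp1 and Cxcl5 had 72.8 CPM of Uck2 and 44.3 CPM of Nampt, and the one led by Pi16 and Htra3 had 10.5 CPM and 70.1 CPM. Differences between clusters were not tested.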
